A study of Mus musculus with 1666 samples.

Results

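Keratin cells are described here, 83 epithelial cells of embryonic mouse whisker follicles that carried RNA of the keratins of the inner root sheath. They were chosen from the cells of embryonic stages E14.0, E15.0 and E17.0 (days of gestation) by 3 measured values, in TPM (a transcript's share of a cell's RNA reads after correction for gene length). Krt5, a keratin of basal epidermis, had to be at 10 TPM or more, Col3a1, a fibroblast collagen, under 50 TPM, and the sum of Krt25, Krt27, Krt28 and Krt71 at 10 TPM or more. This held for 83 of the 1614 cells of the series (5.14%), for 83 of the 796 cells of the 3 stages (10.4%) and for 83 of the 504 cells that met the conditions on Krt5 and Col3a1, which are called epithelial here (16.5%). They were set against 299 reference cells of the same stages that met the same conditions on Krt5 and Col3a1 and had a keratin sum under 1 TPM. The other 122 epithelial cells had a sum of 1 to under 10 TPM and entered neither class. By stage there were 10 keratin and 98 reference cells at E14.0, 20 and 127 at E15.0, and 53 and 74 at E17.0.

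All cells came from embryos with a transgene for nuclear Kikume Green-Red, a fluorescent protein that light turns from green to red, so keratin and reference cells shared it. Single whisker follicles were photoconverted whole, and red cells with ITGA6, an integrin of basal epidermal cells, and without CD31, an endothelial protein, were sorted into single wells. Libraries were made by RamDA-seq, which reads total RNA over its full length. Strain, sex, litter and the promoter of the transgene are not given in the sources used here, so a stage counted as 1 sample, and its library plates, which may share embryos, were used only to see whether a value repeated.

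The inner root sheath is the sheath of hardened cells that lies between the growing hair shaft and the outer root sheath and moulds the hair as it moves upward. Both the shaft and the inner sheath arise from matrix cells at the base of the follicle, next to the dermal papilla, where Wnt and Shh signals act. Krt25, Krt27 and Krt28 are type I keratins of the inner sheath and Krt71 to Krt73 are type II partners, with Tchh (trichohyalin) filling the mature cells. GATA3 is required in mouse skin for the inner root sheath to form, and CUX1 marks its lineage.

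The genes for Krt25, Krt26, Krt27 and Krt28 lie next to each other on the minus strand of mouse chromosome 11, within 59.4 kb, from the end of Krt25 at position 99315516 to the start of Krt28 at position 99374903 (build mm10, GENCODE M21, a protein-coding gene each). Krt71 lies on the minus strand of chromosome 15 at positions 101733949 to 101743109. The 250 bases before the start of each gene of the rule are shown 5′ to 3′, because these genes define the cells. The sequences are from RefSeq on GRCm38.p6, the same assembly as mm10. They are chr11:99374904-99375153 for Krt28, chr11:99351119-99351368 for Krt27, chr11:99322952-99323201 for Krt25 and chr15:101743098-101743347 for Krt71. For Krt27 the RefSeq start is at position 99351118 and the GENCODE start at 99351104. For Krt71 they are at 101743097 and 101743109.
Krt28: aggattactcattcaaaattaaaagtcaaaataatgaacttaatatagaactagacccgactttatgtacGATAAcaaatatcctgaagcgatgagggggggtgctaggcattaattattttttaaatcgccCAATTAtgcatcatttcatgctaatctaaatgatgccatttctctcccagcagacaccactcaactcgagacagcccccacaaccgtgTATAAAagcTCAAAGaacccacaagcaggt
Krt27: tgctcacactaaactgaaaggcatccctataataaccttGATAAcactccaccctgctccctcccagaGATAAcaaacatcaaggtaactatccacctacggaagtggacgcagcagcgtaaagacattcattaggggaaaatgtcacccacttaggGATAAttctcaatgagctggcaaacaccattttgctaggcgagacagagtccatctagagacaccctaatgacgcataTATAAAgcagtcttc
Krt25: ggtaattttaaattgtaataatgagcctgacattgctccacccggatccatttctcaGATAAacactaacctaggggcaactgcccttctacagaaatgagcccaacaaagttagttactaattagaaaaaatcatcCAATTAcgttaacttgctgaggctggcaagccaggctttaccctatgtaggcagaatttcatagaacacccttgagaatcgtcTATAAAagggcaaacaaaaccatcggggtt
Krt71: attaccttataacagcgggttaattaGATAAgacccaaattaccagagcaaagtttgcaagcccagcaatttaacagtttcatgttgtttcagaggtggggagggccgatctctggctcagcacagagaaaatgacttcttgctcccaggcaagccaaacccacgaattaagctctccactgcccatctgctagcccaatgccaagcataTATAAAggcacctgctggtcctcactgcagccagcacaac
Capitals mark matches, on either strand, to GATAA (the core read by GATA factors), CTTTGA (Lef and Tcf factors), TAATTG (Msx and Dlx factors), ATCGAT (Cux1) and TATAAA (the TATA box). No 2 matches overlap. GATAA is in 4 of the 4 windows and in 22.6% of the 32851 mouse promoter windows of the same length. TATAAA is also in 4 of the 4, against 12.4% of all windows. TAATTG is in the windows of Krt28 and Krt25 (7.17% of all), CTTTGA in that of Krt28 alone (13.8% of all), and ATCGAT in none of the 4 (0.728% of all). These matches describe letters and show no binding.

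Krt28 led the keratins of the rule. Its RNA was the highest of the 4 in 66 of the 83 cells, that of Krt25 in 10, that of Krt27 in 6 and that of Krt71 in 1. Since these levels chose the cells, they are given with no test. Krt28 had a lowest, median and highest value of 0, 142 and 427 TPM over the keratin cells of E14.0, of 0, 69.7 and 669 TPM at E15.0, and of 0, 87.99 and 1120.4 TPM at E17.0. The median was highest at E14.0, and the highest cell was at E17.0. Krt27 was low, with medians of 5.10, 8.04 and 7.08 TPM at E14.0, E15.0 and E17.0 and a highest cell of 55.7 TPM. Krt25 was uneven, with medians of 0.513, 0 and 2.46 TPM and highest cells of 41.1, 221 and 2897 TPM. It reached 10 TPM in 2 of 10 cells at E14.0, 7 of 20 at E15.0 and 21 of 53 at E17.0. Krt71 reached 10 TPM in 0 of 10, 0 of 20 and 3 of 53 cells. Detection at 1 TPM or more covered 1 of the 4 keratins in 12 cells, 2 in 31 cells, 3 in 33 cells and 4 in 7 cells. The keratin cells just above the limit had sums of 10.3, 10.4 and 10.5 TPM, and the epithelial cells just below it had 9.48, 9.08 and 8.75 TPM. A further 6 cells, 4 at E15.0 and 2 at E17.0, had sums of 10.2 to 45.9 TPM and were left out because their Krt5 was between 1.30 and 7.61 TPM.

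**Figure D1:**
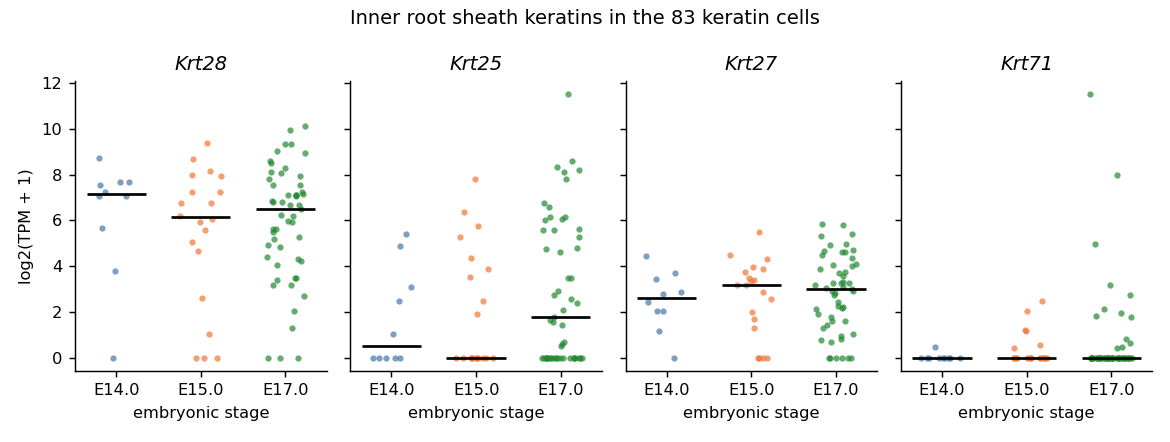
Level of Krt28, Krt25, Krt27 and Krt71 in each keratin cell (vertical axis, log2(TPM + 1)) by stage (horizontal axis, 10, 20 and 53 cells). Points are cells and bars are medians. Krt28 was at 10 TPM or more in 68 of the 83 cells, and Krt71 in 3, all of E17.0.

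Checked against the markers of the inner root sheath, the cells met the name in part. Cux1, which the rule did not use, averaged 185, 160.4 and 107 TPM in keratin cells of E14.0, E15.0 and E17.0, against 30.6, 37.6 and 32.2 TPM in reference cells. It was higher in the keratin cells of each stage and of 8 of 8 plates, by 2.11 ± 0.19 (SE, 3 stages) on the log2(TPM + 1) scale, with an adjusted p of 0.0302. Gata3 did not pass the test. It averaged 187, 310.0 and 455 TPM in keratin cells and 337, 443 and 437 TPM in reference cells, a difference of -0.43 ± 0.19 with an adjusted p of 0.236, and was lower in keratin cells on 6 of 8 plates. Almost all epithelial cells had it, 76 of 83 keratin cells and 295 of 299 reference cells at 10 TPM or more. Of the other products of the inner sheath, Krt72 was at 0 in all 83 keratin cells, Krt73 reached 10 TPM in 4 of 83 keratin cells and 6 of 299 reference cells, and Tchh in 2 of 83 and 8 of 299. Krt26, which lies among the genes of the rule on chromosome 11, did not reach 10 TPM in any. Krt74 did not either, but it is annotated as a pseudogene in the mouse, so nothing is read from it. By these values the cells carry type I keratins of the rule, with the type II partners and Tchh at or near 0 in most, and they are called keratin cells for their rule.

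**Figure D2:**
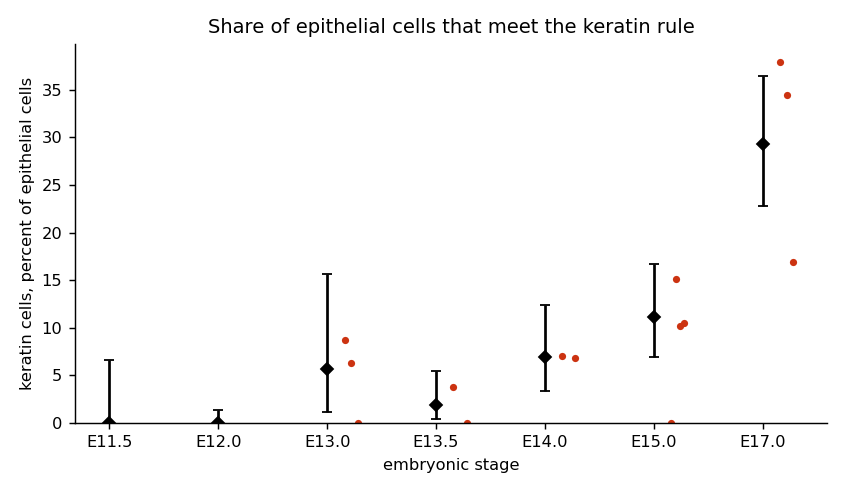
Share of epithelial cells that met the keratin rule (vertical axis, percent) by embryonic stage (horizontal axis). Diamonds are stages with exact 95% intervals, and red points are the plates of E13.0 and later. The share was 0% at E11.5 and E12.0 and 29.3% at E17.0.

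Keratin cells made up a larger share of epithelial cells at each later stage, a description since a stage is 1 sample. They were 6.94% at E14.0 (10 of 144, exact Clopper-Pearson 95% interval 3.38 to 12.4%), 11.2% at E15.0 (20 of 179, 6.96 to 16.7%) and 29.3% at E17.0 (53 of 181, 22.8 to 36.5%). The intervals cover counting error only. On the plates the shares were 7.04 and 6.85% at E14.0, 0, 15.1, 10.2 and 10.5% at E15.0, and 37.9, 34.5 and 16.9% at E17.0. The lowest plate of E17.0 lay above the highest of E15.0 by less than the spread between the plates of E17.0. E15.0 plate 1 held only 10 epithelial cells, so a count of 0 there has an exact 95% interval of 0 to 30.8%. With a limit of 50 TPM for the keratin sum the shares were 5.56, 7.82 and 19.3%. The sort delivered other cells in amounts that differed between plates, which is why shares are of epithelial cells.

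Depth per cell is unknown from TPM. A median of 17212.5, 16630 and 16082 genes reached 1 TPM in keratin cells of E14.0, E15.0 and E17.0, and 17485.5, 17382 and 16661.5 in reference cells, so fewer were detected in keratin cells at each stage. Plates of E14.0 and plate 2 of E15.0 share a format of the description text that the other plates of E15.0 and those of E17.0 do not have. No label calls this a batch, and it cannot be told apart from the stage between E14.0 and E17.0. No 2 cells had identical values.

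Across genes, keratin and reference cells were compared over the 3 stages with limma, with the stage as a block, on log2 of the class mean plus 1 TPM, a scale that understates changes of low genes. Of 22598 genes tested, 303 rose in keratin cells (1.34%) and 648 fell (2.87%), at an adjusted p under 0.05. In all 4.21% were called, and 6030 had an unadjusted p under 0.05. The median difference of all genes tested was -0.09. With median-of-ratios scaling the split was 448 higher and 568 lower. The counts rest on all 3 stages and on the E14.0 plates, which hold 5 keratin cells each. With any stage left out limma called 0 genes, although 3962 to 4968 had an unadjusted p under 0.05. Without E14.0 plate 1 there were 39 higher and 26 lower genes, and without E14.0 plate 2 there were 30 and 14. Of the 28 genes named for this comparison, 16 and 10 then stayed past the threshold, and 0 did with a stage left out. Leaving out E15.0 plate 3 gave 184 higher and 414 lower genes, E15.0 plate 2 217 and 389, and E17.0 plate 2 202 and 360. In 1155 genes (5.11%) the means of the 8 plates with keratin cells did not overlap between the classes.

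Signals of the follicle base rose in keratin cells. Shh, the hedgehog ligand of the matrix, averaged 48.8, 74.7 and 51.8 TPM in keratin cells of E14.0, E15.0 and E17.0, against 0.394, 0.226 and 0.182 TPM in reference cells. It rose by 5.53 ± 0.20 (adjusted p = 0.0150). Of the 58 epithelial cells with Shh at 10 TPM or more, 55 were keratin cells, 1 had a keratin sum of 1 to under 10 TPM and 2 were reference cells. Wnt10b, a Wnt ligand of the hair placode and matrix, averaged 98.4, 96.1 and 48.2 TPM in keratin cells and 7.88, 3.25 and 2.55 TPM in reference cells, a rise of 3.93 ± 0.23 (adjusted p = 0.0192). Notum, a secreted enzyme that inactivates Wnt proteins, averaged 102, 60.8 and 32.95 TPM in keratin cells and 0.263, 0.501 and 0.235 TPM in reference cells, a rise of 5.50 ± 0.33 (adjusted p = 0.0208). For all 3 genes the stage means of the classes were far apart, and keratin cells were higher on 8 of 8 plates. Crhr1, a receptor of corticotropin-releasing hormone, rose by 4.01 ± 0.47 (adjusted p = 0.0353), with 43.3, 20.3 and 6.33 TPM in keratin cells and at most 0.322 TPM in reference cells. Shh, Notum and Crhr1 passed the filter, a mean of 1 TPM or more over the 6 class means, only through the keratin cells.

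Targets of the Wnt pathway rose as well. Of the 14 genes of the Wnt target list, 12 passed the filter, 8 rose and 0 fell, with a median difference of 1.95 against -0.09 for all genes tested. Over all genes tested 1.34% rose and 2.87% fell. Of the 8 Wnt targets that rose, Notum passed the filter only through the keratin cells. Lef1, the transcription factor that pairs with beta-catenin in matrix and precortex, averaged 396, 482 and 311 TPM in keratin cells and 60.9, 28.9 and 5.99 TPM in reference cells, and rose by 4.06 ± 0.55 (adjusted p = 0.0422). Its difference was widest at E17.0, where the reference level was lowest. Axin2 and Nkd1, feedback inhibitors of the pathway, rose by 2.07 and 2.94, Apcdd1 and Znrf3, inhibitors at the membrane, by 1.83 and 1.26, Edar, a receptor of the ectodysplasin pathway, by 2.88 and Ccnd1, cyclin D1, by 1.41. Ctnnb1, beta-catenin itself, did not pass the test (0.27, adjusted p = 0.253). In the BMP list of 16 genes 14 were tested, 0 fell and 1 rose. This was Bmp2, a ligand, at 57.2, 30.9 and 9.34 TPM in keratin cells and 1.21, 3.18 and 0.676 TPM in reference cells (3.42 ± 0.46, adjusted p = 0.0419). Bmp4 differed by 2.68 (adjusted p = 0.0684), and the targets Id1, Id2 and Id3 by 1.1, 0.99 and 0.87 (adjusted p = 0.134, 0.148 and 0.126). Of 14 Notch genes 12 were tested and 1 rose, Nrarp, a feedback inhibitor, by 1.22 ± 0.13 (adjusted p = 0.0317). Nothing is read from a count of 1 on the BMP and Notch lists.

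Homeobox factors of the Msx and Dlx families rose, while the regulators of the inner root sheath were mixed. In the list of 16 matrix and shaft regulators, which holds Shh, Lef1, Wnt10b and Cux1, 9 rose and 0 fell, with a median of 2.13, but Shh, Msx1, Dlx1 and Dlx4 passed the filter only through the keratin cells. Over all genes tested 1.34% rose and 2.87% fell. Dlx3, a homeobox factor that hair formation needs in mice, averaged 194, 153 and 121 TPM in keratin cells and 7.81, 5.33 and 4.40 TPM in reference cells. Its rise of 4.52 ± 0.10 (adjusted p = 0.00538) was nearly equal at the 3 stages. Msx1, another homeobox factor, averaged 107, 71.8 and 32.8 TPM in keratin cells and 0.149, 0.522 and 0.0788 TPM in reference cells (5.70 ± 0.33, adjusted p = 0.0192). Of 47 epithelial cells with Msx1 at 10 TPM or more, 41 were keratin cells. Msx2 rose by 3.57, Dlx1, Dlx2 and Dlx4 by 2.02, 3.27 and 3.35, and Sox21, a factor of hair cuticle formation on the inner sheath list, by 3.37. Hoxc13 and Foxn1, factors of hair shaft keratin genes, were higher in keratin cells by 2.15 and 1.19 without passing the test (adjusted p = 0.0570 and 0.0591). Of 15 inner root sheath regulators 14 were tested, 8 with a positive and 6 with a negative difference, and 4 rose (Cux1, Msx2, Dlx3 and Sox21) and 1 fell. That was Prdm1, which encodes BLIMP1, with 3.66, 11.2 and 9.15 TPM in keratin cells and 26.98, 58.9 and 78.3 TPM in reference cells (-2.62 ± 0.17, adjusted p = 0.0223).

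**Figure D3:**
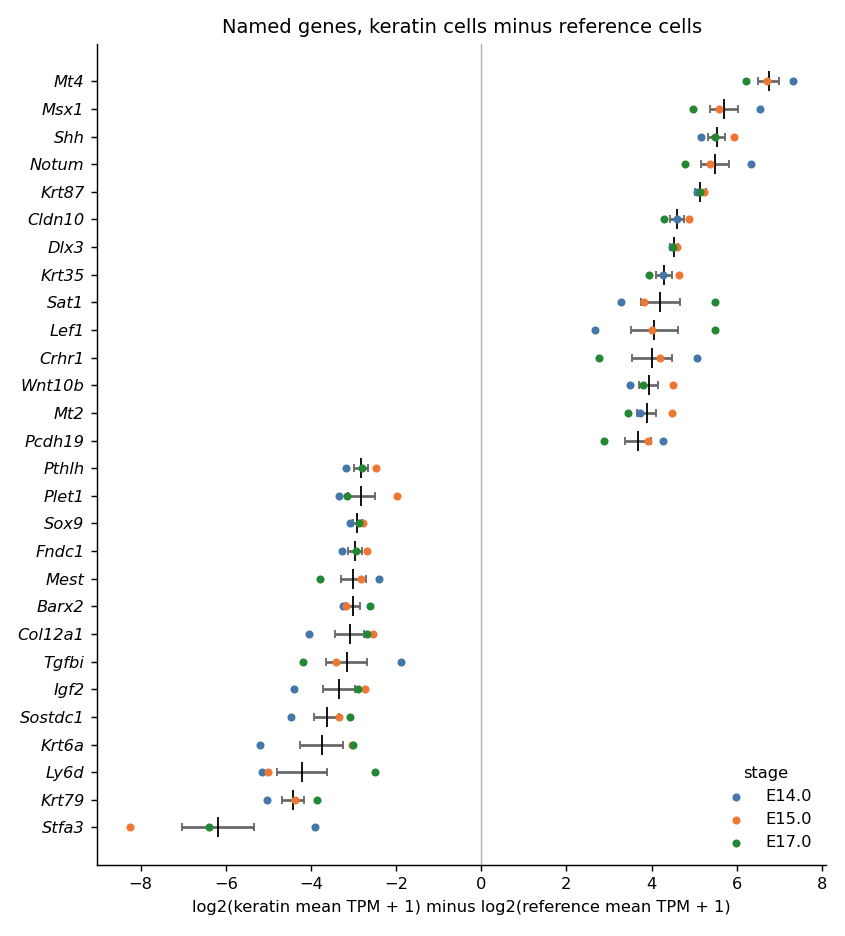
Difference between keratin and reference cells (horizontal axis, log2(TPM + 1) of the class means) for the 14 named genes each way (vertical axis). Points are the 3 stages, and ticks with bars are their mean ± SE from limma. Every gene had the same sign at all 3 stages, which the choice of named genes required. Mt4, listed at 0 in reference cells, is drawn at its fitted value.

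Keratins of the hair shaft were present in a part of the same cells. Krt35, a type I keratin of matrix and cortex, averaged 42.1, 33.4 and 21.3 TPM in keratin cells and 1.24, 0.364 and 0.447 TPM in reference cells (4.29 ± 0.19, adjusted p = 0.0190). It was uneven within the class and reached 10 TPM in 8 of 10, 5 of 20 and 6 of 53 keratin cells at E14.0, E15.0 and E17.0. Krt87, a type II hair keratin, averaged 40.6, 39.3 and 39.7 TPM in keratin cells and 0.239, 0.0661 and 0.163 TPM in reference cells (5.15 ± 0.13, adjusted p = 0.00736). Krt87 reached 1 TPM in 39 and 10 TPM in 33 of the 83 keratin cells. Krt81, Krt83, Krt86 and Krt82, other type II hair keratins, rose by 3.22, 2.72, 2.16 and 1.49. These type II genes are close copies of each other, so reads may have been shared among them, and, like Krt35, they passed the filter only through the keratin cells. Of the 14 genes of the list 13 were in the table and 7 passed the filter, and nothing is read from how many of these rose. Krt31, Krt34 and Krt36, of the later shaft, averaged at most 0.460 TPM in keratin cells at any stage. S100a3, a calcium-binding protein of the hair cuticle, rose by 3.38 ± 0.16 (adjusted p = 0.0190), and Dsg4, the desmosomal cadherin of the hair shaft, by 3.26 ± 0.22 (adjusted p = 0.0238), higher on 7 of 8 plates. Dsg4 too passed the filter only through the keratin cells.

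Further named genes rose. Mt4, a metallothionein of stratified epithelia, averaged 159, 104 and 73.1 TPM in keratin cells and was listed at 0 in all 299 reference cells, so no fold is given (adjusted p = 0.0150). It was at 10 TPM or more in 58 of 83 keratin cells and in 2 of the 122 cells between the limits. Mt2, a widely expressed metallothionein, averaged 502, 608 and 813 TPM in keratin cells and 36.9, 26.1 and 73.3 TPM in reference cells (3.89 ± 0.22, adjusted p = 0.0190). Sat1, which acetylates spermidine and spermine, averaged 265, 346 and 443 TPM in keratin cells and 26.4, 23.3 and 8.86 TPM in reference cells (4.20 ± 0.46, adjusted p = 0.0331). Cldn10, a tight junction claudin, and Pcdh19, a protocadherin, rose by 4.60 ± 0.17 and 3.69 ± 0.31. Mt4 and Cldn10 passed the filter only through the keratin cells. St14, the membrane serine protease matriptase, rose by 2.58 ± 0.27 (adjusted p = 0.0325), and was the 1 gene to rise on a list of 13 proteases and inhibitors, where Klk10, a secreted kallikrein, fell by 1.60. On that list 10 genes were tested, and nothing is read from counts of 1.

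The genes that fell included those of the outer root sheath and upper follicle. Sox9, the factor of outer root sheath and early follicle stem cells, averaged 5.45, 11.6 and 11.8 TPM in keratin cells of E14.0, E15.0 and E17.0, against 53.6, 85.9 and 92.3 TPM in reference cells (-2.91 ± 0.11, adjusted p = 0.0157). It reached 10 TPM in 15 of 83 keratin cells and 260 of 299 reference cells. Over all genes tested 1.34% rose and 2.87% fell. Of 16 regulators of outer root sheath and stem cells 15 were tested, 0 rose and 6 fell, with a median of -0.97. Beside Sox9 these were Lrig1, a stem cell receptor (-2.37), the factors Tbx1 (-1.69), Tcf7l1 (-1.46) and Tcf7l2 (-1.11), and Runx1 (-0.64). Lgr5 and Nfatc1, of stem cells, did not pass the test (differences of -1.75 and -3.27, adjusted p = 0.0625 and 0.168). Krt14 and Krt15, basal keratins, fell by 1.93 and 2.55, and Krt17 and Krt16, on the companion layer list, by 1.77 and 2.57, Krt16 on 5 of 8 plates only. Krt6a, a keratin of the companion layer, averaged 0.0824, 0.0407 and 3.37 TPM in keratin cells and 38.8, 7.51 and 34.1 TPM in reference cells (-3.75 ± 0.51, adjusted p = 0.0421). Krt75, the other companion layer keratin, was higher in keratin cells by 1.91 (adjusted p = 0.0809).

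On the list of 10 upper follicle genes 7 were tested, 3 fell (Krt79, Plet1 and Sostdc1) and 0 rose, with a median of -0.86. Over all genes tested 1.34% rose and 2.87% fell. Krt79, a keratin of the follicle opening, averaged 3.11, 0.0967 and 0.180 TPM in keratin cells and 133, 21.7 and 16.1 TPM in reference cells (-4.42 ± 0.26, adjusted p = 0.0192), though plate means were lower in keratin cells on 6 of 8 plates only. Plet1, a surface protein of the upper isthmus, fell by 2.82 ± 0.31, Ly6d, a surface protein of epithelial cells, by 4.22 ± 0.59, and Stfa3, a cysteine protease inhibitor with close copies, by 6.19 ± 0.85. Sostdc1, a secreted inhibitor of Wnt and BMP signals, averaged 6.39, 11.3 and 9.51 TPM in keratin cells and 163, 125 and 88 TPM in reference cells (-3.63 ± 0.30, adjusted p = 0.0294). Of 16 suprabasal genes 11 were tested and 1, Krtdap, fell, by 2.73. Of 19 structural and hardening proteins of the inner sheath 8 were tested, 1 rose (S100a3) and 2 fell, Tgm1, a transglutaminase, by 2.09 and Ppl, periplakin of the cornified envelope, by 1.5. Krt1 and Krt10, suprabasal keratins, did not pass the test (adjusted p = 0.151 and 0.196), and Krt10 was at 10 TPM or more in 5 of 83 keratin cells and 48 of 299 reference cells, so the reference cells held suprabasal cells too. Among growth factors and matrix genes, Igf2 fell by 3.34 ± 0.37, Pthlh, a parathyroid hormone-like ligand, by 2.81 ± 0.16, Tgfbi and Fndc1, matrix-associated proteins, by 3.17 and 2.97, and Col12a1, a collagen, by 3.09. Tgfbi passed the filter only through the reference cells. Barx2, a homeobox factor, fell by 3.01 ± 0.17 (adjusted p = 0.0190) and Mest, an imprinted gene, by 3.0 ± 0.29 (adjusted p = 0.0306). Annotated antisense or overlapping transcripts share exons with the markers Cux1 and Gata3, with Shh, Lef1, Notum, Mt2, Pcdh19, Igf2, Mest, Krt6a, Plet1 and Bmp4, and with Dst and Ankrd37, described with the stages, and the use of strand in counting is not given in the sources used here, so reads of such pairs cannot be told apart.

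Of 15 S phase genes 3 rose and 0 fell, with a median of 0.67, and of 15 mitosis genes 4 rose and 0 fell, with a median of 1.11, where 1.34% of all genes tested rose. Mki67, a marker of dividing cells, averaged 95.1, 46.9 and 57.6 TPM in keratin cells and 23.04, 22.7 and 17.01 TPM in reference cells (1.57 ± 0.22, adjusted p = 0.0430). It was at 10 TPM or more in 50 of 83 keratin cells and 73 of 299 reference cells. Mcm2, Mcm3 and Mcm7, of the replicative helicase, rose by 1.04, 1.07 and 0.77, and Plk1, Ccnb1 and Cenpe, of mitosis, by 1.56, 1.39 and 1.21. Ccnd2, cyclin D2, rose by 0.94 ± 0.08 (adjusted p = 0.0302). Among 20 genes of basal adhesion and the basement membrane 1 fell, a share near the 2.87% of all genes tested. It was Itgb1, the beta 1 integrin, by 0.87 ± 0.09 (adjusted p = 0.0331). Itga6, whose protein was used for the sort, averaged 48.5, 68.4 and 96.1 TPM in keratin cells and 175, 183 and 153 TPM in reference cells (-1.30, adjusted p = 0.0639). Of 14 desmosome genes Dsg4 and Dsc3 rose and Pkp3 fell, by 0.91. Of 11 immediate early and stress genes Dusp1 fell, by 1.18, and 0 rose.

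Cells between the limits resembled the reference cells in these genes. Shh averaged 2.02, 0.296 and 0.284 TPM in cells with a keratin sum of 1 to under 10 TPM at E14.0, E15.0 and E17.0, Lef1 31.2, 47.02 and 18.4 TPM, Dlx3 13.1, 19.1 and 11.52 TPM and Sox9 77.8, 71.4 and 86.1 TPM. Each of these means lay closer to that of the reference cells of its stage than to that of the keratin cells.

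Within the keratin cells some genes differed between E14.0 and E17.0, which is a description of 1 sample a stage. The class did not hold the same mix of cells at each stage. Shh reached 1 TPM in 9 of 10 keratin cells at E14.0, 16 of 20 at E15.0 and 36 of 53 at E17.0. Sox9 reached 10 TPM in 1, 3 and 11 of them. The part of this mix in the stage means below was not tested. When genes below 1 TPM in most keratin cells of the higher stage were set aside, the largest ratio of E17.0 to E14.0 was that of Dcn, which encodes the matrix proteoglycan decorin and is best known from fibroblasts. Its level averaged 4.67, 61.1 and 230.0 TPM in keratin cells of E14.0, E15.0 and E17.0, against 4.26, 2.99 and 2.33 TPM in reference cells. Keratin cell means on the plates were 1.11 and 8.23 TPM at E14.0, 28.8, 153 and 11.7 TPM at E15.0, and 265, 204.8 and 206 TPM at E17.0, and the highest plate mean of the reference cells was 4.996 TPM. It reached 10 TPM in 1 of 10, 11 of 20 and 39 of 53 keratin cells, with a median of 160.1 TPM at E17.0. Over the 3 stages the difference of 3.39 ± 1.19 did not pass the test (adjusted p = 0.171). Of the other 7 fibroblast markers, Col1a1 and Col1a2 averaged at most 3.497 and 30.8 TPM in keratin cells at any stage, against at most 39.97 and 117 TPM in reference cells, and Col3a1, Lum, Pdgfra, Twist1 and Twist2 at most 1.57 TPM in keratin cells. The summed means of the 8 markers, Dcn included, were 8.55, 95.6 and 242 TPM in keratin cells and 39.8, 85.6 and 163 TPM in reference cells. Gjb6, connexin 30, averaged 3.21, 11.3 and 77.3 TPM in keratin cells, Dst, a hemidesmosome linker, 9.52, 24.2 and 68.4 TPM, Igfbp5, an IGF-binding protein, 9.14, 50.8 and 55.4 TPM, and Hspa1b, an inducible heat shock protein with a close copy, 15.1, 34.8 and 115 TPM. The reference cells had 70.5, 50.7 and 95.2 TPM of Gjb6, 75.3, 94.8 and 165 TPM of Dst, 143, 98.4 and 72.3 TPM of Igfbp5 and 56.7, 89.6 and 166 TPM of Hspa1b. Dst and Hspa1b were thus higher at E17.0 than at E14.0 in both classes. Keratin cell means of Gjb6 on the E17.0 plates were uneven, at 97.7, 85.3 and 21.9 TPM. In the other direction, Slc40a1, the iron exporter ferroportin, averaged 300.3, 157 and 13.99 TPM in keratin cells and 17.03, 4.72 and 6.63 TPM in reference cells. Stc2, a secreted glycoprotein, averaged 113.7, 28.6 and 8.81 TPM in keratin cells, Herpud1, a gene of the endoplasmic reticulum stress response, 181, 46.1 and 16.9 TPM, Hspa2, a heat shock protein, 51.7, 15.3 and 5.47 TPM, and Ankrd37, an ankyrin repeat protein, 52.4, 18.1 and 5.70 TPM. The reference cells had 37.3, 60.1 and 20.8 TPM of Stc2, 24.3, 29.9 and 19.3 TPM of Herpud1, 2.63, 1.51 and 2.01 TPM of Hspa2 and 35.5, 44.3 and 10.9 TPM of Ankrd37, the last also lower at E17.0 than at E14.0. Nfatc1, a factor of hair follicle stem cells, averaged 0.377, 35.3 and 106 TPM in keratin cells and 129, 161 and 228 TPM in reference cells, and its keratin cell means on the E17.0 plates were 170, 74.8 and 37.3 TPM. These means came from few cells, since its median in keratin cells of E17.0 was 0.448 TPM and 14 of 53 reached 10 TPM.

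**Figure D4:**
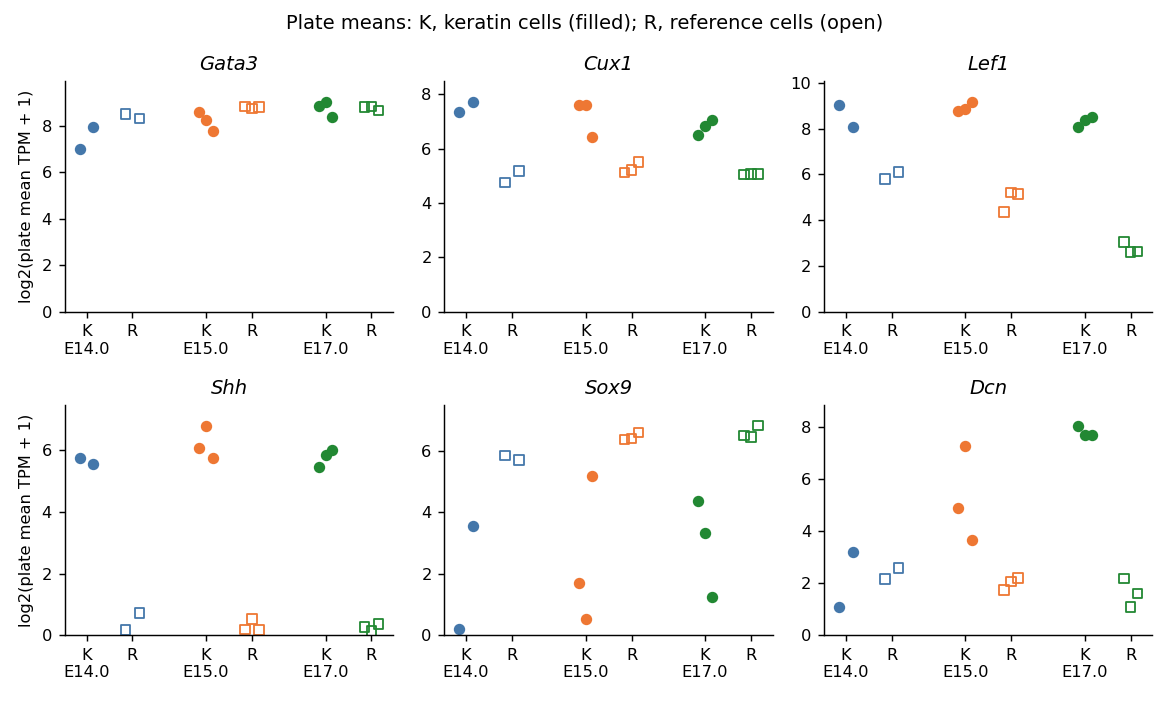
Plate means (vertical axis, log2(TPM + 1)) of Gata3, Cux1, Lef1, Shh, Sox9 and Dcn in keratin cells (K, filled) and reference cells (R, open) of 2, 3 and 3 plates at E14.0, E15.0 and E17.0. Shh and Lef1 were higher and Sox9 lower in keratin cells on 8 of 8 plates, Gata3 lay lower in keratin cells on the plates of E14.0 and E15.0 and overlapped at E17.0, and Dcn was apart at E15.0 and E17.0 only.

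The keratin cells were not uniform. Krt28 and Shh were both at 10 TPM or more in 55 of the 83 cells, Gata3 and Shh in 51, Krt28 and Gata3 in 61 and Gata3 and Cux1 in 75. Krt25 was at that level together with Krt28 in 24 cells and together with Krt35 in 2. Krt28 and Krt35 were both at that level in 19 cells. Spearman's rho over the cells of a stage is given as a description, since cells of a stage share their sample and depth is unknown. Krt28 went with Shh (rho 0.80 over 20 cells of E15.0 and 0.67 over 53 cells of E17.0) and with Dlx3 (0.79 and 0.73). Krt28 and Krt25 are genes of the rule that chose the cells, so counts and rho with them depend in part on that choice. Lef1 went with Mt4 (0.62 and 0.78), Msx2 (0.47 and 0.70) and Dcn (0.62 and 0.75). Gata3 ran against Lef1 (-0.63 and -0.67) and against Krt35 (-0.59 and -0.43). Shh went with Dcn (0.75 and 0.80). The number of genes detected per cell had rho of -0.31 and -0.43 with Krt28 and of -0.44 and -0.53 with Dlx3, and its part in the other values was not tested.

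**Figure D5:**
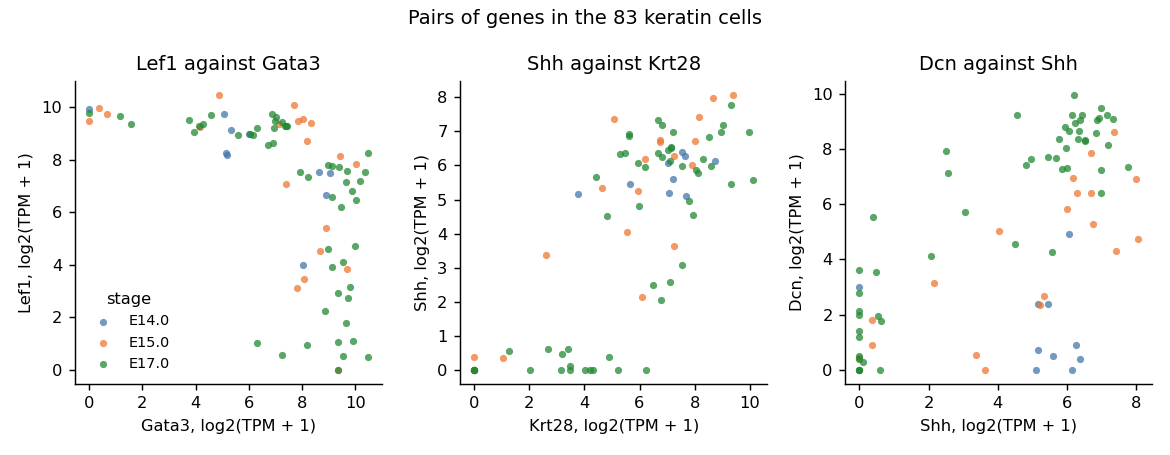
Pairs of genes in the 83 keratin cells, coloured by stage: Lef1 against Gata3, Shh against Krt28 and Dcn against Shh (both axes log2(TPM + 1), points are cells). Lef1 was low in many of the cells with the most Gata3, cells with Shh had Krt28, and 9 of the 10 E14.0 cells had Shh at 10 TPM or more while 1 of them had Dcn at that level. Krt28 is a gene of the rule that chose the cells.

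The highest levels of Krt25, Krt71 and Tchh were all in 1 cell on plate 2 of E17.0. It had 2897 TPM of Krt25, 2914 TPM of Krt71, 1120.4 TPM of Krt28, 1031 TPM of Tchh and 128 TPM of Krt73, with 829 TPM of Gata3, 0 TPM of Krt14 and 4.62 TPM of Mki67. The next highest keratin cell had 389 TPM of Krt25, and the next highest had 255 TPM of Krt71 and 11.7 TPM of Tchh. Without this cell the E17.0 means fell to 43.9 TPM for Krt25, against 97.7 TPM with it, and to 6.01 TPM for Krt71, against 60.9 TPM, and 313 higher and 654 lower genes were called. Among the keratin cells, Krt71 and Krt73 at 10 TPM or more were found at E17.0 only. Krt71 was at 30.6 to 2914 TPM in 3 cells on plates 1 and 2. Krt73 was at 19.3 to 289 TPM in 4 cells, all on plate 2.

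Of 7 melanocyte markers 3 passed the filter and Dct, dopachrome tautomerase, rose, at 10, 9.39 and 8.52 TPM in keratin cells and 0.217, 0.0766 and 0.102 TPM in reference cells (3.19 ± 0.14, adjusted p = 0.0190), and it was at 10 TPM or more in 34 of 83 keratin cells and 0 of 299 reference cells. Dct passed the filter only through the keratin cells. The other pigment genes Pmel, Tyr, Tyrp1 and Mlana averaged under 1 TPM in both classes at each stage. Kit, a receptor of melanocytes and other cells, averaged 4.75, 8.69 and 26.6 TPM in keratin cells and 3.90, 4.35 and 7.09 TPM in reference cells (adjusted p = 0.165), and the summed means of the 7 markers were 17.4, 22.1 and 42.3 TPM in keratin cells and 13.7, 17.4 and 21.5 TPM in reference cells. The 7 periderm markers summed to 181, 129 and 190.9 TPM in keratin cells and 306, 240.1 and 292 TPM in reference cells. Krt19, on the periderm list, fell by 2.90 ± 0.44 (adjusted p = 0.0498). Of 8 Merkel cell markers 7 were tested, each lower in keratin cells without passing the test, and none averaged over 2.77 TPM in keratin cells at any stage. The summed means of the 8 endothelial markers were 4.85 to 5.41 TPM over the 3 stages in keratin cells and 6.02 to 9.09 TPM in reference cells, those of the 8 immune markers 5.46 to 5.96 and 4.40 to 7.15 TPM, and those of the 8 muscle markers 2.52 to 3.92 and 3.53 to 4.67 TPM. For the 8 nerve and Schwann markers they were 38.6 to 40.01 and 31.9 to 32.6 TPM, mostly from Erbb3, which was at 10 TPM or more in 74 of 83 keratin cells and 249 of 299 reference cells. For the 7 dermal papilla markers they were 4.48 to 12.4 TPM in keratin cells and 28.2 to 82.9 TPM in reference cells, mostly from Prdm1. Of the 8 genes on each of the endothelial, nerve, immune, muscle and fibroblast lists, 3, 2, 1, 1 and 4 passed the filter, too few to read a list from its calls.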

How the data were processed

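The values are TPM, made by the authors and deposited as 1 table of 49662 gene symbols by 1614 cells. Build mm10, HISAT2 2.0.4, bcl2fastq 1.0 and featureCounts (Subread 1.5.0) are named in the submitters' processing notes. The annotation release and the use of strand in counting are not given in the sources used here. TPM keeps no depth, so no count model was run, and no doublet caller, since cells were sorted into single wells. Of 1666 labelled cells, 1614 had a column.

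The members, lists and tests were chosen with earlier results of these data known. Levels are means over the cells of a class and stage, with reference cells weighted to the plates of the keratin cells. Log2(class mean + 1 TPM) was fitted in limma 3.58.1 under R 4.3.3 (eBayes, trend), with the stage as a block. Genes entered where the 6 class means averaged 1 TPM or more. P-values are two-sided, Benjamini-Hochberg adjusted over all genes, with a threshold of 0.05, and rest on 3 stages, so they measure the spread between stages. The 6 genes of the rule stayed in the fit and are described only. Errors after ± are SE. The code was tested on simulated data. There it recovered 17 of 50 genes changed by a log2 of 1, 34 of 50 by 2 and 48 of 50 by 4. It also called 6 unchanged genes. A gene that did not pass the test may therefore still differ. Other steps ran under Python 3.11.15 with pandas 2.3.3, numpy 2.4.6 and scipy 1.17.1, and plots were drawn in matplotlib 3.10.9.

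Named genes are the 14 largest differences each way among those past the threshold, with the same sign at each stage and a higher class mean of at least 20 TPM. Within keratin cells they are the 5 largest ratios of E17.0 to E14.0 each way, with a higher mean of at least 50 TPM and detection at 1 TPM in at least 50% of the cells of the higher stage. Predicted, ribosomal, mitochondrial and small RNA genes and pseudogenes were passed over. Members of the lists may also be named. Of the lists, 1 is not reported here.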

Additional observations from a re-analysis of the deposited data

Results flagged for a closer look

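In 11 genes every plate of E14.0 differed between keratin and reference cells in one direction and every plate of E17.0 in the other, among 337 genes looked at. The difference between the stages was not tested. With 2 plates at E14.0 and 3 at E17.0 such a pattern can arise by chance. No share over all genes was computed, so nothing is read from the count. The log2 differences, keratin minus reference cells, were 1.58 at E14.0 and -1.15 at E17.0 for Stc2, a secreted glycoprotein, 0.729 and -1.1 for Lhx2, a factor of follicle stem cells, 0.791 and -0.752 for Vdr, the vitamin D receptor, and 0.294 and -1.22 for Gli1, a transcription factor. They were 0.682 and -0.538 for Jag2, a Notch ligand, 0.373 and -0.0559 for Ctnnb1 and 0.168 and -0.24 for Jund. For the laminin chains they were 0.642 and -0.685 (Lama5) and 0.167 and -1.17 (Lamb3). The 2 genes with the opposite order were Lgr6, a receptor of stem cells, at -1.18 and 1.05, and Perp, a desmosome protein, at -0.804 and 0.383.

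Outside the 3 stages, 6 cells of E13.0 and E13.5 met the rule, 3 of 53 epithelial cells at E13.0 and 3 of 159 at E13.5. None of 325 epithelial cells of E11.5 and E12.0 did, which allows a share of up to 0.923%. The 6 cells had keratin sums of 11.2 to 122 TPM with Krt28 the highest in each, and Krt71 was at 0 in all 6. Shh was at 28.8 to 261 TPM, Lef1 at 100.5 to 349 TPM and Cux1 at 105 to 515 TPM in them. Sox9 was at 0.185 to 0.359 TPM in 5 of them and at 67.8 TPM in the other.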

How the results depend on the processing

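Over 79 genes and 2036 recomputed values, 0 changed direction, and the 28 named genes kept their sign under every setting, but not their calls. Of the 28, 16 stayed past the threshold without E14.0 plate 1, 10 without E14.0 plate 2, 1 with no filter and 0 with a stage left out. The number of calls moved. Against 303 higher and 648 lower genes, there were 558 higher and 749 lower with a filter at 10 TPM, where 8937 genes were tested. With no filter there were 2 higher and 0 lower (limma, 8482 genes at an unadjusted p under 0.05). A pseudocount of 0.1 TPM gave 220 higher and 369 lower. Means of log2 values gave 901 and 1115, a keratin limit of 50 TPM 581 and 1521, and stages weighted by keratin cells 966 and 1801. Plates as units, which may share embryos, gave 1905 and 4004. The E17.0 share was 19.3% with the limit of 50 TPM. Leaving out 1 stage or plate gave 0 to 328 higher and 0 to 711 lower genes, and shares of 6.85 to 7.04% at E14.0, 9.52 to 11.8% at E15.0 and 25.2 to 36.2% at E17.0. The counts of 0 (limma) came with a stage left out, which leaves 2 stages, and there 3962 to 4968 genes had an unadjusted p under 0.05. Leaving out the cell with the highest keratin sum, or E15.0 plate 1 from the shares, was chosen after seeing the data. No paired analysis was possible because of what the replicate numbers are, names of single cells. The classes were paired by stage in the main test instead, and by plate with plates as units. Calls rest on 10 keratin cells at E14.0, depth is unknown, and stage, sequencing plate and embryo cannot be told apart.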
